A study of Mus musculus with 24 samples.

Results

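The comparison described here sets embryos labelled as Srf knockouts against their controls at embryonic day 9.0 (E9.0), on 8 of the 24 bead arrays of the series, 4 for each genotype. The arrays were chosen by their titles alone. Knockout embryos are labelled SRF(flex/flex);T:cre with genotype Srf(-/-): a conditional allele is to be deleted by Cre under the promoter of T, a gene of the primitive streak and of the mesoderm that leaves it. Controls are titled wild type, but their genotype label is Srf(+/-), so by the labels the comparison is with heterozygotes. Both parents of the cross carried T:cre on both chromosomes, so every embryo carried the Cre transgene as well. Strain C57Bl/6 and the unsegmented caudal end of the body, as total RNA, are given for both groups. Whether the 4 samples of a group came from different embryos or litters is not in the labels. The p-values therefore speak of the spread among these samples alone, and that spread may be technical.

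Serum response factor, the protein made from Srf, binds DNA at the CArG box. With cofactors of the myocardin family, which sense free actin, it drives genes for actin and the proteins that build and anchor filaments. With ternary complex factors such as Elk3 it drives immediate early genes after growth factor signals. The caudal end of the embryo holds the tail bud, which feeds new mesoderm into the presomitic mesoderm. Its cells leave an epithelium, migrate and are later cut into somites.

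Srf itself was lower in every knockout sample. Normalized log2 intensity was 8.46, 8.67, 8.18 and 8.504 in knockouts, against 9.26, 9.13, 9.28 and 9.39 in controls. The groups did not overlap, and the difference was -0.81 ± 0.11 (SE, n = 4 per group; adjusted p = 0.00126 by limma). A dimmer Srf probe gave -0.51. Signal well above background remained in knockouts. No source used here places the probes inside or outside the deleted exons, so the signal need not report the deletion itself. Of the cofactors measured, Elk3 differed by -0.29 ± 0.11 (adjusted p = 0.0694), Mrtfa by -0.09 and Myocd by -0.13, and none of these passed the test. Mrtfa and Myocd were each above background on 2 of 4 knockout arrays and 3 of 4 control arrays, so a change in them could be missed. The cofactors Mrtfb and Elk4 were too dim to test. Fhl2, a partner of SRF and itself a target, fell.

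The median bead intensity per array before normalization was 36.81 to 38.92 in knockouts and 37.78 to 38.91 in controls, and 12695 to 13352 and 13183 to 13625 probes were detected. The small number of arrays limits the precision. Of 25697 probes, 13362 were detected on at least 4 of the 8 arrays and gave 9848 features to test, 9070 of them named genes. A gene was called where its Benjamini-Hochberg adjusted p was under 0.05. In all 2445 features were called, or 24.8% of those tested: 1342 higher in knockouts (13.6%) and 1103 lower (11.2%). Counts of called list members are to be read beside these shares. Without control replicate 4 the count of called features was 1603, and in a fit that shares the spread of all 24 arrays it was 1525. The median log2 fold change over all features was 0.005. At least 2-fold differences were seen for 82 called features that were higher and 110 that were lower. Between arrays of 1 group Pearson's r over these features was 0.9848 to 0.9957, and between groups 0.9725 to 0.985.

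Genes of the actin cytoskeleton that are known targets of SRF were lower as a group. Of 26 measured members of this list, 14 fell and 1 rose, with a median log2 fold change of -0.44, beside 11.2% and 13.6% called in those directions over all features. The list mean was 9.03 to 9.13 over the knockout arrays and 9.51 to 9.63 over the controls. The promoter sequences of 5 genes that fell are shown because they carry the element that SRF binds. Each stretch of 100 bases is from RefSeq on GRCm38.p6, printed 5′ to 3′ on the strand of the gene. Capitals mark the CArG box.
Srf, chr17:46556170-46556269, minus strand: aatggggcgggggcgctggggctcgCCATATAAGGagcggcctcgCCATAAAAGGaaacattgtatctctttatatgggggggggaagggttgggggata
Fhl2, chr1:43196803-43196902, minus strand: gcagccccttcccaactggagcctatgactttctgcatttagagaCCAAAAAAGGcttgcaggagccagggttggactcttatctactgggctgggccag
Cnn2, chr10:79988499-79988598, plus strand: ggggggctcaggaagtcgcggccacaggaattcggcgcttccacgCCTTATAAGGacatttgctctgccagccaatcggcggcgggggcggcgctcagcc
Actc1, chr2:114052876-114052975, minus strand: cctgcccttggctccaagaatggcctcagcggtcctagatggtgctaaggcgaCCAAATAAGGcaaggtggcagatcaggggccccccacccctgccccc
Vcl, chr14:20929148-20929247, plus strand: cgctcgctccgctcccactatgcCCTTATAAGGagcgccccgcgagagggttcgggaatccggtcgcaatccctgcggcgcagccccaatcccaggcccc

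The window of Srf holds 2 such boxes, and Cnn2 and Vcl share the same box letters. Over windows from 250 bases before to 50 after the gene start, read on both strands, a CArG box was found in 6 of 17 windows of the called actin genes (35.3%). It was found in 7 of 30 windows of all measured members (23.3%), in 2.20% of windows of called lower genes and in 1.12% of called higher genes. Over all tested genes the share was 1.36%, and over all RefSeq promoters it was 1.63%. The actin list was made of known SRF targets, so a higher share in it was favoured in advance. A match is a description of the letters and does not show binding, and Tpm1 and Wdr1, without a box in the window, fell as far as genes with one. Fhl1, the member that rose, and Myl6, which differed by 0.01, hold a box too.

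Actins and tropomyosins did not all move alike. The bright probe of Actb, cytoplasmic beta actin, had 14.03, 14.06, 13.97 and 13.99 in knockouts, against 14.65, 14.47, 14.47 and 14.47 in controls. Its difference was -0.50 ± 0.09 (SE; adjusted p = 0.00293 by limma), but the probes of this gene disagreed. The other two bright probes had -0.88 and -0.32, whereas a pair of dim probes had 2.73 and 2.84 in the opposite direction. The dim probe with 2.73 read 7.15, 9.18, 8.15 and 8.73 in knockouts, against 6.01, 5.01, 5.47 and 5.83 in controls. The direction for Actb therefore depends on the probe, and the mean of its probes was higher in knockouts (0.77, adjusted p = 0.0192). Actc1, cardiac actin, was not above background on any knockout array and was detected on all 4 controls. Its measured means were 4.44 ± 0.07 in knockouts and 5.89 ± 0.48 in controls (SD, n = 4), which makes it at least 2.11-fold lower (adjusted p = 0.00102). Smooth muscle actin, Acta2, had -0.45 ± 0.34 with overlapping groups (adjusted p = 0.361). Tpm1, a tropomyosin that runs along the filament, had 11.51, 11.04, 11.36 and 11.44 in knockouts, against 12.76, 12.48, 12.19 and 12.44 in controls. All 4 knockouts lay below all 4 controls, and Tpm1 fell by 1.13 ± 0.14 (adjusted p = 0.000618). Tpm3 fell by 0.51 ± 0.09 (adjusted p = 0.00334), while Tpm2 had 0.23 (adjusted p = 0.134), with all knockouts above all controls.

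Proteins that turn filaments over fell as well. Wdr1, which helps cofilin take filaments apart, had 10.49, 10.36, 10.27 and 10.54 in knockouts, against 11.74, 11.57, 11.65 and 11.58 in controls. It fell by 1.22 ± 0.09 (SE; adjusted p = 5.86e-05 by limma), and a second Wdr1 probe gave -1.45. Cfl1, cofilin, had -0.72 ± 0.11, Dstn, its relative destrin, -0.52 ± 0.13 and Pfn1, profilin, which loads actin for assembly, -0.43 ± 0.11, and all of these fell. Pfn1 lost its call without control replicate 2 (adjusted p = 0.0503). Tmod1, which caps the pointed end of filaments and is abundant in red cells, was not above background on any knockout array and was at least 2.22-fold lower (adjusted p = 0.0117). Its control values were 5.34, 5.10, 6.47 and 6.94, high in the same 2 arrays as the red cell genes described further on.

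Anchors and adaptors moved likewise. Vcl, vinculin, which ties filaments to adhesions, had 9.07, 8.99, 8.77 and 8.89 in knockouts, against 9.81, 9.62, 9.40 and 9.59 in controls. The groups were apart, by -0.67 ± 0.11 (SE; adjusted p = 0.00241 by limma). Cnn2, a calponin, had 5.27, 5.05, 4.98 and 5.03 in knockouts, against 5.81, 6.46, 6.60 and 6.51 in controls. That is -1.26 ± 0.16, and a dimmer Cnn2 probe had -0.47. Fhl2, a LIM-domain adaptor, had 5.46, 4.98, 5.33 and 5.26 in knockouts, against 6.76, 6.96, 6.70 and 6.88 in controls. It fell by 1.56 ± 0.12 (adjusted p = 5.5e-05), the farthest of the members detected on all 8 arrays. Pdlim7 fell by 0.48 ± 0.14, a call lost without knockout replicate 1, control replicate 3 or control replicate 4 (adjusted p from 0.0575 to 0.0703). Fhl1, a related LIM protein, rose by 0.54 ± 0.10 (adjusted p = 0.00332).

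**Figure D1:**
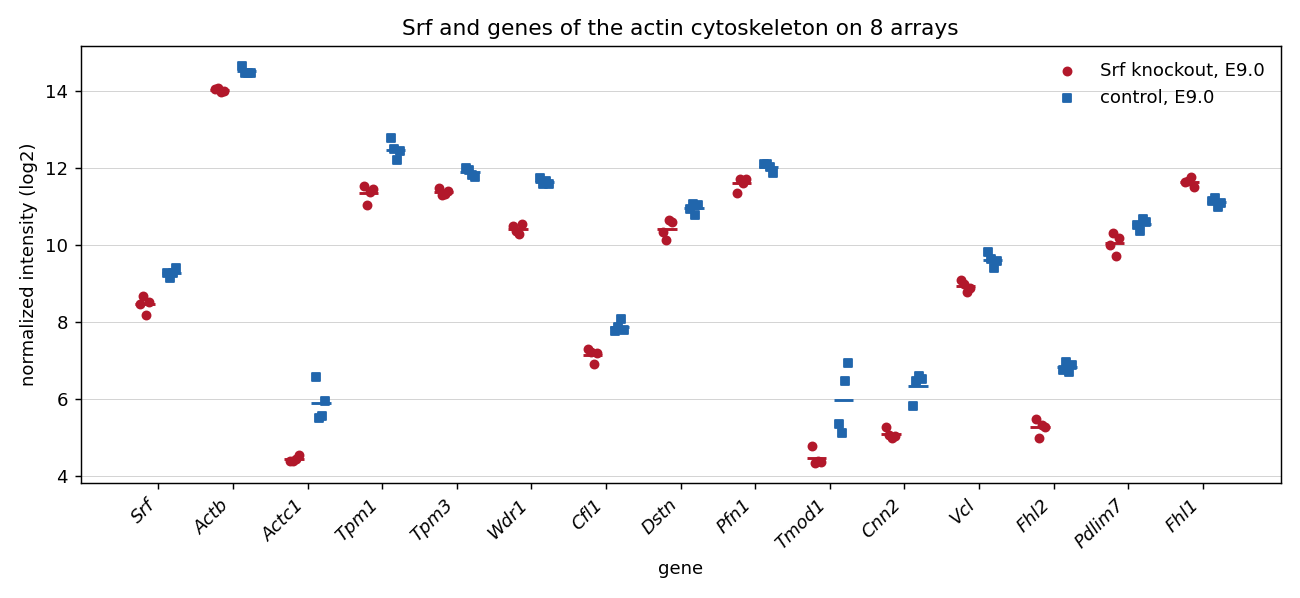
Normalized intensity (log2, vertical axis) of Srf and 14 actin cytoskeleton genes on the 4 knockout arrays (circles, left of each pair) and the 4 control arrays (squares, right); bars are group means. Knockouts lie below controls for every gene drawn except Fhl1, which was higher in knockouts, and for Actb only the bright probe used is drawn.

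Immediate early genes did not move as 1 group. Of 16 measured, 3 rose and 4 fell, Srf among the falls, and the median was 0.08. Over all features 13.6% were called higher and 11.2% lower. Egr1, a zinc finger factor of the early growth factor response, had 8.25, 7.88, 8.03 and 8.16 in knockouts, against 6.42, 6.19, 6.51 and 6.88 in controls. It rose by 1.58 ± 0.15 (SE; adjusted p = 0.000153 by limma), all knockouts above all controls. Ier3, a stress-induced survival gene, had 8.21, 8.56, 8.55 and 9.38 in knockouts, against 5.63, 5.83, 6.59 and 6.58 in controls, and rose by 2.52 ± 0.27 (adjusted p = 0.000308). Klf6 rose by 0.54 ± 0.10. Myc fell by 0.44 ± 0.11, a call lost without control replicate 3 (adjusted p = 0.0501). Junb, with 0.42 ± 0.21, did not pass the test (adjusted p = 0.166).

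The secreted matricellular genes Ccn1 and Ccn2, which are targets of both SRF and YAP, fell. Ccn2 had 7.83, 7.67, 7.48 and 7.12 in knockouts, against 8.55, 8.41, 8.26 and 8.48 in controls, a difference of -0.90 ± 0.15 (SE; adjusted p = 0.00228 by limma). Ccn1 fell by 0.77 ± 0.13 (adjusted p = 0.00302). Of 15 measured genes of the YAP and TAZ pathway, 5 fell and 1 rose, with a median of -0.09. Over all features 11.2% were called lower and 13.6% higher. Ankrd1, a YAP target, was not above background on any knockout array and was at least 1.68-fold lower (adjusted p = 0.0063). Ajuba, a LIM protein of cell junctions, fell by 0.51 ± 0.13, and that call was lost without control replicate 2 or 4 (adjusted p = 0.0565 at most).

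Adhesion receptors differed by subunit. Of 16 measured integrin and focal adhesion genes, 5 fell and 2 rose, with a median of -0.12. Over all features 11.2% were called lower and 13.6% higher. Itga5, the alpha subunit of the main fibronectin receptor, had 7.38, 7.26, 7.83 and 7.82 in knockouts, against 8.53, 8.34, 8.18 and 8.27 in controls. It fell by 0.76 ± 0.15 (SE; adjusted p = 0.00489 by limma). Itga3, which pairs with Itgb1 to bind laminin, fell by 0.53 ± 0.12 (0.0107), and Itgav, a vitronectin receptor subunit, fell by 0.49 ± 0.12 (0.0177). Itgb5, a beta partner of Itgav, was at 9.75, 9.82, 9.63 and 9.77 in knockouts, against 9.23, 8.86, 9.06 and 9.11 in controls. It rose by 0.68 ± 0.10 (adjusted p = 0.00151), and Arpc1b, a subunit of the Arp2/3 actin nucleator, by 0.62 ± 0.10. Itgb1, the common beta subunit, had 0.19 ± 0.10 (adjusted p = 0.209).

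Among 13 genes of the matrix and basement membrane, 2 rose and 2 fell, near the 13.6% and 11.2% called in those directions over all features. The laminin chains Lamb2 and Lamc1 rose by 0.94 ± 0.15 and 0.45 ± 0.11 (SE; adjusted p = 0.00213 and 0.0153 by limma). Col4a1, of basement membrane collagen, fell by 0.33 ± 0.08, and Col1a1, fibrillar collagen, had -1.10 ± 0.18 (adjusted p = 0.00228), with signal above background on 2 of 4 knockout arrays. The caveolar genes Cav1 and Cavin3, coat proteins of the same membrane pits, went opposite ways. Cav1 had 6.44, 6.68, 6.43 and 6.32 in knockouts and was not above background on any control, which makes it at least 3.24-fold higher (adjusted p = 8.05e-06). Cavin3 fell by 0.64 ± 0.10 (adjusted p = 0.00233).

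The labelled tissue was checked against its defining markers. In bulk samples like these, fewer cells of a type and less RNA per cell cannot be told apart, for every cell type described here. Cdx2, the caudal homeobox gene, averaged 12.58 ± 0.16 in knockouts and 12.37 ± 0.12 in controls (SD, n = 4), Fgf8, the tail bud growth factor, 10.59 ± 0.28 and 10.52 ± 0.25, and Tbx6, of the presomitic mesoderm, 10.37 ± 0.24 and 9.92 ± 0.40. These were detected on every array and did not differ by the test (adjusted p = 0.184, 0.784 and 0.108 by limma); the mean of the Tbx6 probes lay in the other direction, at -0.15. T, whose promoter drives the Cre, was not analysed here. Of 21 measured tail bud and primitive streak genes, 2 rose and 1 fell, with a median of -0.03. Cdx4, a caudal factor, had 8.92, 8.61, 8.94 and 8.52 in knockouts, against 8.39, 8.33, 7.92 and 8.21 in controls and rose by 0.54 ± 0.14 (SE; adjusted p = 0.0168). Lin28a, which blocks maturation of let-7, rose by 0.42 ± 0.09 (adjusted p = 0.0105). Wnt5a, a ligand that guides cell movement, fell by 0.74 ± 0.22 (adjusted p = 0.0339) with overlapping groups. That call was lost without knockout replicate 1 or 2 or control replicate 1, 2 or 4 (adjusted p from 0.0584 to 0.0935). The shares called, 2 of 21 and 1 of 21, lie below those over all features.

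Of 26 measured genes of the presomitic mesoderm and segmentation clock, 4 rose and 4 fell, with a median of -0.04. These counts are near the 13.6% called higher and 11.2% called lower over all features. Hes5, a Notch target also used by neural progenitors, had 6.39, 6.22, 6.48 and 6.74 in knockouts, against 4.36, 5.02, 5.11 and 5.60 in controls, where it was detected on 3 arrays. It rose by 1.43 ± 0.22 (SE; adjusted p = 0.00192 by limma). Dusp4, a phosphatase that restrains ERK, rose by 0.61 ± 0.14 (0.0132). Hey2, another Notch target, fell by 0.76 ± 0.17 (0.01), and Fgfr1, the FGF receptor of this tissue, fell by 0.54 ± 0.11 (0.00665). Of 15 genes of the mesenchymal transition and cadherins only Snai1 and Twist1 were called, and both fell. That share, 2 of 15, is near the 11.2% called lower over all features. Snai1, a repressor of E-cadherin that cells use to leave the epithelium, had 8.10, 7.50, 8.18 and 8.38 in knockouts, against 8.73, 8.31, 8.89 and 9.22 in controls. The groups overlapped at the edge, and the difference was -0.75 ± 0.21 (adjusted p = 0.0287). It was not called without knockout replicate 1 or 2 or control replicate 3 or 4 (adjusted p from 0.0503 to 0.0773). Twist1, a mesenchymal factor, fell by 0.75 ± 0.19, a call lost without control replicate 3 (0.0512) or 4 (0.0514). Of 7 measured somite genes 1 fell and none rose. Tcf15, needed for somites to become epithelial, had -0.76 ± 0.28 and was not called (adjusted p = 0.0752).

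Of 21 measured epithelial and surface ectoderm genes, 5 rose and 1 fell, against 13.6% called higher and 11.2% lower over all features. Differences were negative for 7, and the median of 0.14 ran from 0.04 to 0.24 when 1 array was left out. Wnt6, a ligand of the ectoderm, had 9.16, 9.47, 9.28 and 9.22 in knockouts, against 8.43, 8.29, 8.47 and 8.36 in controls, and rose by 0.90 ± 0.10 (SE; adjusted p = 0.000285 by limma). Krt19, a keratin of simple epithelia, rose by 0.95 ± 0.18, Tfap2c, an ectodermal factor, by 0.90 ± 0.19, Cldn3, a tight junction claudin, by 0.89 ± 0.21 and Grhl3, which closes the posterior neural tube, by 0.69 ± 0.15 (adjusted p from 0.00502 to 0.0128). Of 10 measured neural tube genes, 4 rose and none fell, with a median of 0.26. Irx5, a homeobox factor of the neural plate, rose by 0.81 ± 0.14 (adjusted p = 0.00319), beside Hes5. Of 6 neural crest genes none was called.

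Some midline and gut genes fell. Of 10 measured notochord and node genes 3 fell and none rose, against 11.2% called lower over all features, but 4 differences were positive and the median was -0.07. Noto, the notochord homeobox gene, had 4.82, 4.50, 4.43 and 4.53 in knockouts, against 5.27, 5.26, 5.18 and 5.14 in controls. Its difference was -0.65 ± 0.10 (SE; adjusted p = 0.00214 by limma). Foxa2, of notochord and endoderm, fell by 0.52 ± 0.13 (adjusted p = 0.0162). Both genes were above background on 1 of 4 knockout arrays, so these sizes are uncertain. Of 11 gut endoderm genes 2 fell and none rose; 5 differences were positive and the median was -0.12. Foxa1, an endoderm factor, had 6.49, 6.91, 5.26 and 5.02 in knockouts, against 6.94, 7.77, 7.56 and 7.36 in controls. It fell by 1.49 ± 0.38 (adjusted p = 0.0169), low on knockout replicates 3 and 4, and its call was lost without control replicate 2 (adjusted p = 0.051). Shh, the midline signal, had 8.24, 8.56, 7.64 and 6.75 in knockouts, against 7.90, 8.59, 8.45 and 8.42 in controls. It was low on the same 2 arrays, and its difference of -0.54 was not called (adjusted p = 0.25).

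**Figure D2:**
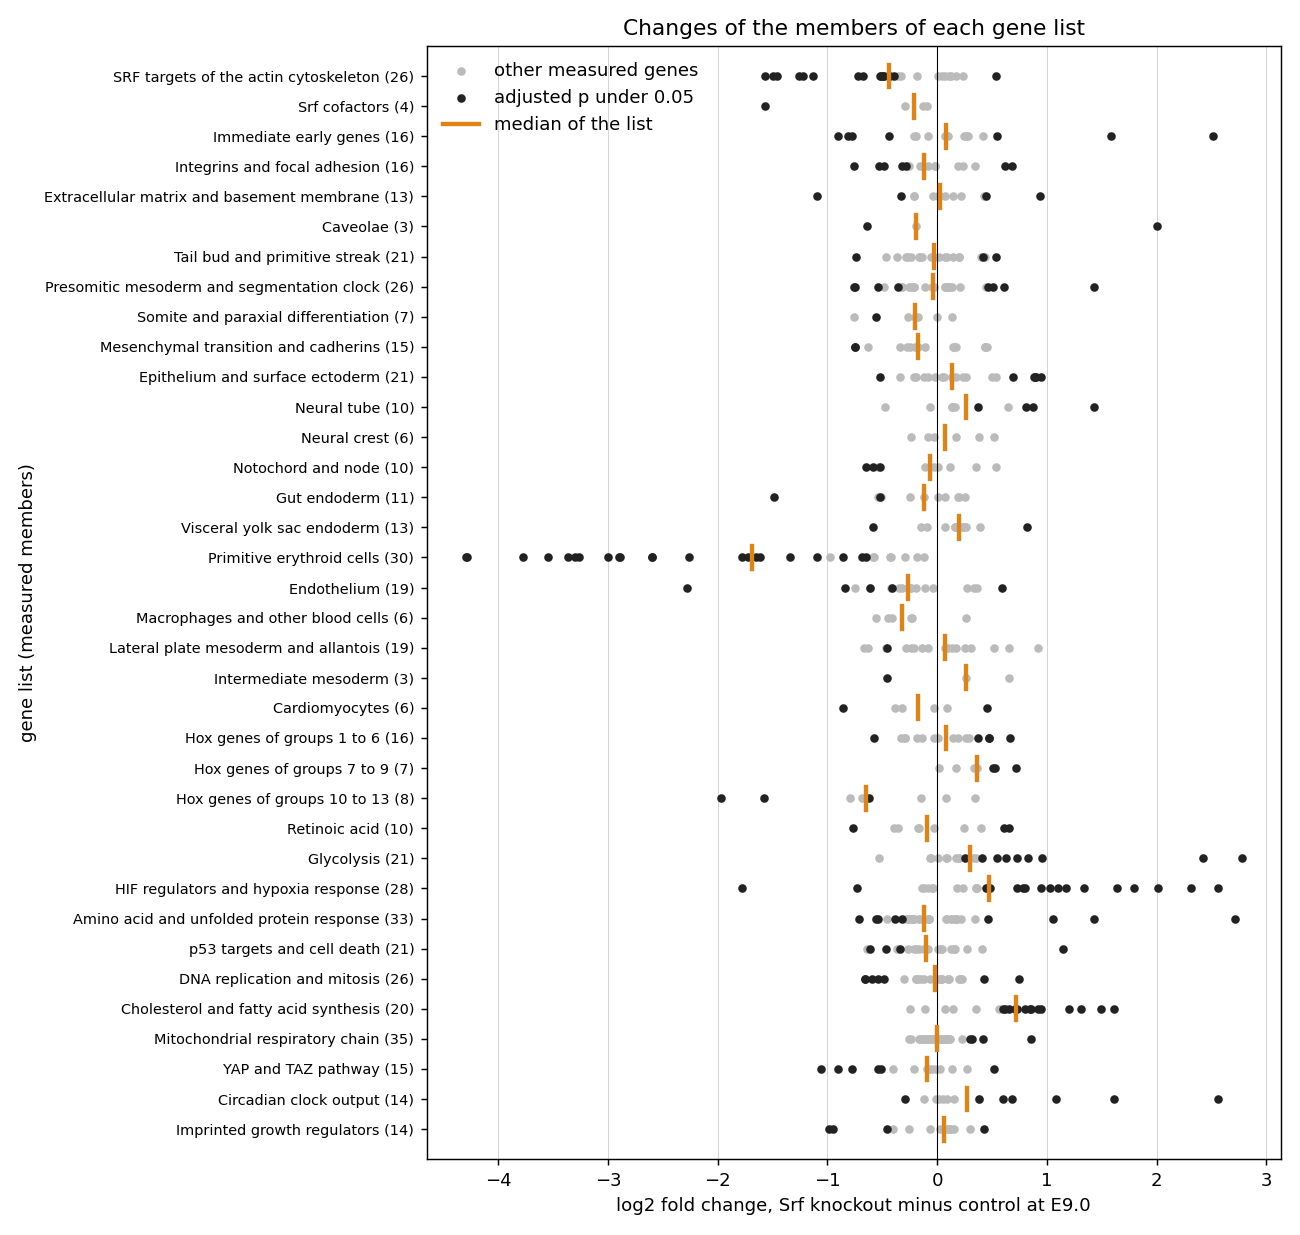
Log2 fold change, knockout minus control at E9.0 (horizontal axis), of every measured member of each gene list (1 row per list, number measured in brackets); black points passed the test, grey points did not, and the orange bar is the list's median. The erythroid list lies farthest to the left with a median of -1.69, and cholesterol and fatty acid synthesis has the highest median, 0.72.

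Hox genes, which set position along the body and are switched on from anterior to posterior, are described by paralogue group; the groups were not tested against each other. Over all features 13.6% were called higher and 11.2% lower. Of 16 measured in groups 1 to 6, 4 rose and 1 fell, with a median of 0.08. Of 7 in groups 7 to 9, 3 rose and none fell, with a median of 0.36 and every difference above 0. Of 8 in groups 10 to 13, 3 fell and none rose, with a median of -0.65. Without the filter on dim probes that median was -0.11 and 1 gene fell, and 1 fell with a trended robust fit. Hoxa7 had 11.17, 11.28, 10.97 and 11.33 in knockouts, against 10.43, 10.53, 10.39 and 10.51 in controls, and rose by 0.72 ± 0.10 (SE; adjusted p = 0.00119 by limma). Hoxa9 and Hoxb9 rose by 0.53 ± 0.10 and 0.51 ± 0.13, and Hoxd4, Hoxc6 and Hoxb4 by 0.66 ± 0.12, 0.47 ± 0.11 and 0.37 ± 0.09. Hoxd9 had 0.36 (adjusted p = 0.0651) and Hoxa10 0.35 (0.0519).

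Hoxd13, the terminal gene of its cluster, had 6.24, 6.46, 6.16 and 6.19 in knockouts, against 8.26, 7.13, 7.91 and 8.06 in controls. It fell by 1.57 ± 0.20 (SE; adjusted p = 0.000813 by limma), with no overlap, and had 0.04 at E8.5. Its neighbour Hoxd12 had 4.56, 4.50, 4.76 and 5.36 in knockouts, against 8.998, 4.90, 6.26 and 6.90 in controls. Here the control spread was wide, 1 of 4 knockouts was above background, and the call (-1.97 ± 0.66, adjusted p = 0.0493) was kept only without control replicate 2. Leaving out any of knockout replicates 1 to 4 or control replicates 1, 3 and 4 ended it, with adjusted p from 0.0514 to 0.0993. Hoxc10 had 11.25, 10.86, 11.57 and 11.93 in knockouts, against 11.99, 12.01, 11.94 and 12.13 in controls. It fell by 0.62 ± 0.19 (adjusted p = 0.0359) and kept its call only without knockout replicate 3 or 4; without knockout replicate 1 or 2 or any of control replicates 1 to 4 its adjusted p was 0.0611 to 0.0865. Hoxc11 had -0.79 (0.0561) and Hoxd10 -0.68 (0.142), neither called. Of the 3 falls, that of Hoxd13 thus did not depend on a single array.

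**Figure D3:**
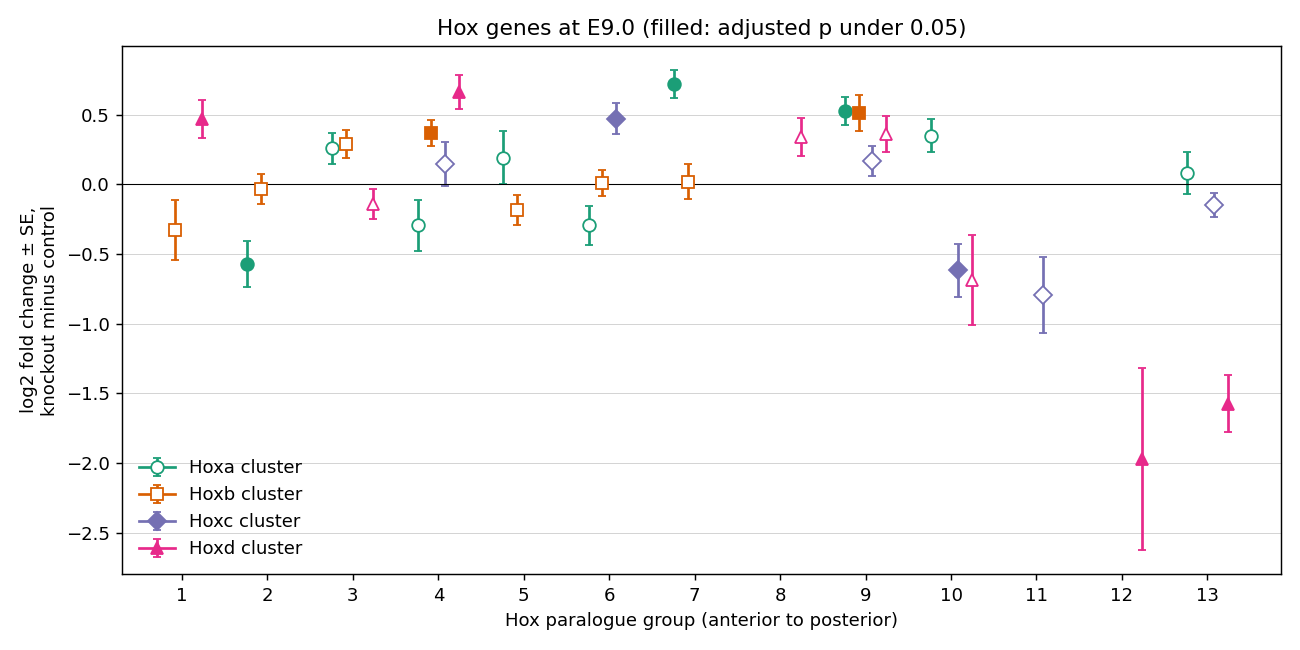
Log2 fold change with its standard error (vertical axis), knockout minus control at E9.0, of each measured Hox gene by paralogue group from anterior to posterior (horizontal axis); colours and shapes mark the 4 clusters, and filled points passed the test. Genes of groups 7 to 9 lie above 0, and Hoxd12 and Hoxd13 lie farthest below, at -1.97 and -1.57.

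Genes of primitive red blood cells showed the widest differences of any list. Of 30 measured, 22 fell and none rose, beside 11.2% called lower and 13.6% higher over all features. All 30 differences were negative. The median was -1.69, or -0.92 in the authors' deposited table of normalized values. Slc4a1, which exchanges chloride for bicarbonate across the red cell membrane, had 10.03, 8.17, 7.36 and 5.27 in knockouts, against 11.14, 11.01, 12.85 and 13.02 in controls. All controls lay above all knockouts, but arrays of 1 genotype spanned several log2 units, and the difference was -4.30 ± 0.84 (SE; adjusted p = 0.00547 by limma). Alas2, the erythroid enzyme that starts heme synthesis, had 7.61, 6.14, 5.56 and 4.33 in knockouts, against 9.28, 9.23, 10.82 and 11.44 in controls, and fell by 4.28 ± 0.66. Knockout replicate 1 was the highest and replicate 4 the lowest of the knockouts for both genes, and control replicates 3 and 4 were the highest controls.

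The embryonic globins Hba-x, Hbb-bh1 and Hbb-y and the alpha globin Hba-a1 fell, with log2 fold changes of -3.77 ± 0.82, -3.36 ± 0.85, -2.997 ± 0.74 and -3.54 ± 0.83 (SE; adjusted p from 0.00898 to 0.0168 by limma). Hba-a1 had 13.75, 12.005, 10.96 and 8.45 in knockouts, against 14.74, 14.68, 14.93 and 14.99 in controls, so that globin RNA was detected on every array. Globin genes have near-identical copies, so which copy each probe reads is uncertain. In the fit over all 24 arrays Hba-a1, Hbb-bh1 and Hbb-y were not called (adjusted p = 0.0529, 0.0513 and 0.12), nor were they with a trended robust fit (0.0602, 0.0747 and 0.069). Regulators fell too. Klf1, the master factor of red cells, had -2.26 ± 0.47, Nfe2, a globin locus factor, -2.90 ± 0.53, Tal1, a blood stem cell factor, -1.78 ± 0.43 and Gfi1b, a repressor, -1.72 ± 0.36. Epor, the erythropoietin receptor, fell by 1.65 ± 0.30. Gfi1b was above background on 1 knockout array and Tal1 on 2.

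Membrane and enzyme genes of the list behaved alike. Kel, a blood group protein, had 5.44, 4.46, 4.40 and 4.33 in knockouts, above background on 1 array only, against 7.14, 6.78, 8.69 and 9.21 in controls. It fell by 3.30 ± 0.49 (SE; adjusted p = 0.00155 by limma). Trim10, Blvrb and Car2 (carbonic anhydrase) were likewise lower, at -3.26 ± 0.57, -2.89 ± 0.47 and -2.60 ± 0.33. Ank1, which holds the membrane skeleton, fell by 2.60 ± 0.48, and its other detected probes had -2.64 and -1.22. Ank1 was above background on 1 of 4 knockout arrays and Trim10 on 2, so these sizes are uncertain. Tfrc, the transferrin receptor, which many dividing cells use, fell less, by 0.69 ± 0.17 (0.0163). Of the heme synthesis genes that every cell uses, Uros fell by 1.34 ± 0.31. Cpox fell by 0.86 ± 0.21 but was above background on 1 knockout array, so its size is uncertain. Alad had -0.58 (adjusted p = 0.067) and Urod -0.30 (0.141). The mean of the list was 7.16 to 8.61 over the knockout arrays and 9.20 to 10.35 over the controls, without overlap.

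**Figure D4:**
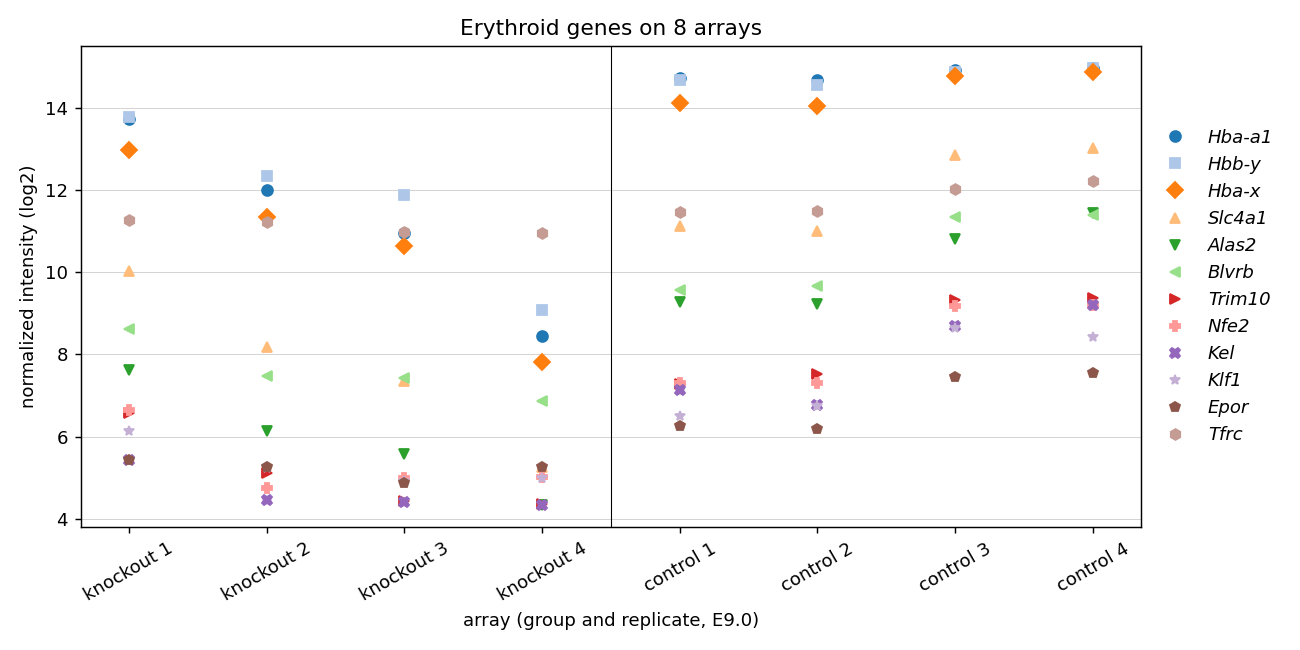
Normalized intensity (log2, vertical axis) of 12 erythroid genes on each array (horizontal axis: knockout arrays 1 to 4, left of the line, and control arrays 1 to 4, right). Knockout array 4 has the lowest globins, with Hba-a1 at 8.45, and controls 3 and 4 have higher values than controls 1 and 2 for Slc4a1, Kel and Trim10.

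Of 19 measured endothelial genes 4 fell and 1 rose, with a median of -0.26, beside 11.2% called lower and 13.6% higher over all features. The other 14 were not called, and 4 differences were positive, up to 0.59. Emcn, endomucin, a surface mucin of veins and capillaries, had 7.28, 7.32, 7.28 and 6.94 in knockouts, against 9.67, 9.08, 9.58 and 9.61 in controls. The groups were far apart, and Emcn fell by 2.28 ± 0.14 (SE; adjusted p = 2.74e-05 by limma). Robo4, Eng and Pecam1, further endothelial genes, fell, with -0.84 ± 0.21, -0.61 ± 0.16 and -0.41 ± 0.09, and Cdh5, the junction cadherin of all endothelium, had -0.25 (adjusted p = 0.431). Among knockouts Emcn was lowest on replicate 4, as were Slc4a1, Alas2 and the globins. Among controls it was lowest on replicate 2, without the split of replicates 3 and 4 from 1 and 2 seen for those genes. None of 6 measured macrophage and other blood cell genes was called.

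Genes of the hypoxia response were higher. This programme is driven by HIF, a factor whose alpha subunit is destroyed when prolyl hydroxylases have oxygen to work with. Of 28 measured members, 16 rose and 2 fell, with a median of 0.47, beside 13.6% and 11.2% over all features. The list mean was 7.60 to 7.77 in knockouts and 6.98 to 7.09 in controls. The hydroxylases Egln3 and Egln1, which are themselves HIF targets, rose by 1.34 ± 0.16 and 0.78 ± 0.14 (SE; adjusted p = 0.000458 and 0.00326 by limma). Hif1a, the alpha subunit, fell by 0.73 ± 0.17, with 7.31, 6.82, 7.69 and 7.38 in knockouts, against 8.21, 8.16, 7.84 and 7.91 in controls. The erythroid list mean moved with genotype on the same 8 arrays, as given above, and its part in these differences was not tested.

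Among the targets, Vegfa, the growth factor of blood vessels, had 9.39, 9.24, 9.43 and 9.13 in knockouts, against 7.86, 8.21, 8.44 and 8.29 in controls, and rose by 1.10 ± 0.13 (SE; adjusted p = 0.0005 by limma). Ddit4, an inhibitor of mTOR, had 11.16, 11.53, 11.03 and 11.37 in knockouts, against 8.95, 8.53, 9.45 and 8.91 in controls, and rose by 2.31 ± 0.18 (adjusted p = 5.86e-05). No array of the knockouts came within 1 log2 unit of a control for Ddit4. Bhlhe40, a repressor that also belongs to the clock, rose by 2.56 ± 0.22, Stc2, a secreted glycoprotein, by 1.79 ± 0.14 and Ndrg1 by 1.64 ± 0.14. Ppp1r3c, which directs glycogen synthesis, rose by 2.01 ± 0.15. The collagen-modifying enzymes P4ha2, P4ha1 and Loxl2 rose by 1.03 ± 0.11, 0.73 ± 0.13 and 1.17 ± 0.14. Edn1, endothelin, went the other way: it was not above background on any knockout array and was at least 2.80-fold lower (adjusted p = 0.000256).

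Glycolysis, the pathway from glucose to pyruvate, had 9 risers and no fallers among 21 measured genes, with a median of 0.30. Over all features 13.6% were called higher and 11.2% lower. Pfkp, a phosphofructokinase, had 7.94, 8.57, 8.48 and 8.05 in knockouts, against 5.90, 5.26, 5.48 and 5.29 in controls. The difference of 2.78 ± 0.18 (SE; adjusted p = 2.74e-05 by limma) was the largest rise of the genes ranked here, though a dimmer Pfkp probe had 1.28. Aldoc, an aldolase, had 8.45, 8.80, 9.68 and 9.06 in knockouts, against 6.52, 6.995, 6.84 and 5.96 in controls, and rose by 2.42 ± 0.27 (adjusted p = 0.000341). The bright enzymes Aldoa, Hk2 and Tpi1 rose by 0.73 ± 0.12, 0.63 ± 0.09 and 0.55 ± 0.10. Pdk1, which keeps pyruvate out of the mitochondria, rose by 0.95 ± 0.14. Eno2 rose by 0.83 ± 0.18, detected on 2 of 4 controls, and Pfkl by 0.41 ± 0.11, a call lost without control replicate 4 (adjusted p = 0.0589). Pgk1 with 0.30 (adjusted p = 0.071) and the glucose transporter Slc2a1 with 0.36 (0.0804) were not called. Promoter windows with ACGTG or GCGTG on either strand, the core that HIF binds, made up 94.1% of those of the called hypoxia genes (16 of 17) and 69.2% of those of the called glycolysis genes. The 17 hypoxia windows came from 13 of the 18 called genes. Hif1a and Edn1, which fell, were among those with the core, and Bhlhe40, Ndrg1 and Loxl2 were not matched to a window. Among all measured members, windows with the core were 23 of 30 for hypoxia and 24 of 31 for glycolysis. They made up 64.2% for called higher genes, 61.2% for called lower genes and 61.6% for all tested genes. The hypoxia list was drawn up around HIF, so a higher share in it was favoured in advance.

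Sterol and fatty acid synthesis was higher in knockouts as well, with 14 risers and no fallers among 20 measured genes and a median of 0.72. Over all features 13.6% were called higher and 11.2% lower. The other 6 genes of the list were not called, 2 differences were negative, and Idi1 was too dim to test. Srebf2, the factor that switches the sterol pathway on when cholesterol is low, had 9.47, 9.69, 9.20 and 9.21 in knockouts, against 7.71, 7.81, 7.79 and 7.81 in controls. It rose by 1.61 ± 0.12 (SE; adjusted p = 5.5e-05 by limma), with both groups tight and far apart. Insig1, which holds that factor back when sterols are plentiful, rose by 1.21 ± 0.18. Enzymes at early and later steps of the pathway rose. Hmgcs1, at the entry, had 13.69, 13.85, 13.91 and 13.78 in knockouts, against 13.002, 13.30, 12.95 and 12.76 in controls, and rose by 0.80 ± 0.12. Mvd and Fdps, which make isoprenoid units and join them, rose by 1.31 ± 0.21 and 0.84 ± 0.16. Sqle, which oxidises squalene, rose by 0.65 ± 0.14, with 0.71 from a second probe, and Lss, which closes the rings, by 0.71 ± 0.17.

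The later enzymes Cyp51, Msmo1, Nsdhl and Hsd17b7 rose by 0.92 ± 0.18, 0.86 ± 0.20, 0.95 ± 0.18 and 0.60 ± 0.15 (SE; adjusted p from 0.00496 to 0.0168 by limma); Hsd17b7 lost its call without control replicate 4 (0.0505). Control replicate 2 was the highest control for each of the enzymes from Hmgcs1 to Hsd17b7 named here. For Lss and Hsd17b7 it overlapped the knockouts, with 9.63 and 9.90. On the fatty acid side Scd1, the desaturase, rose by 1.49 ± 0.16 and Acaca, acetyl-CoA carboxylase, by 0.62 ± 0.08. The mean of the list was 9.66 to 9.98 over the knockout arrays and 8.95 to 9.54 over the controls.

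**Figure D5:**
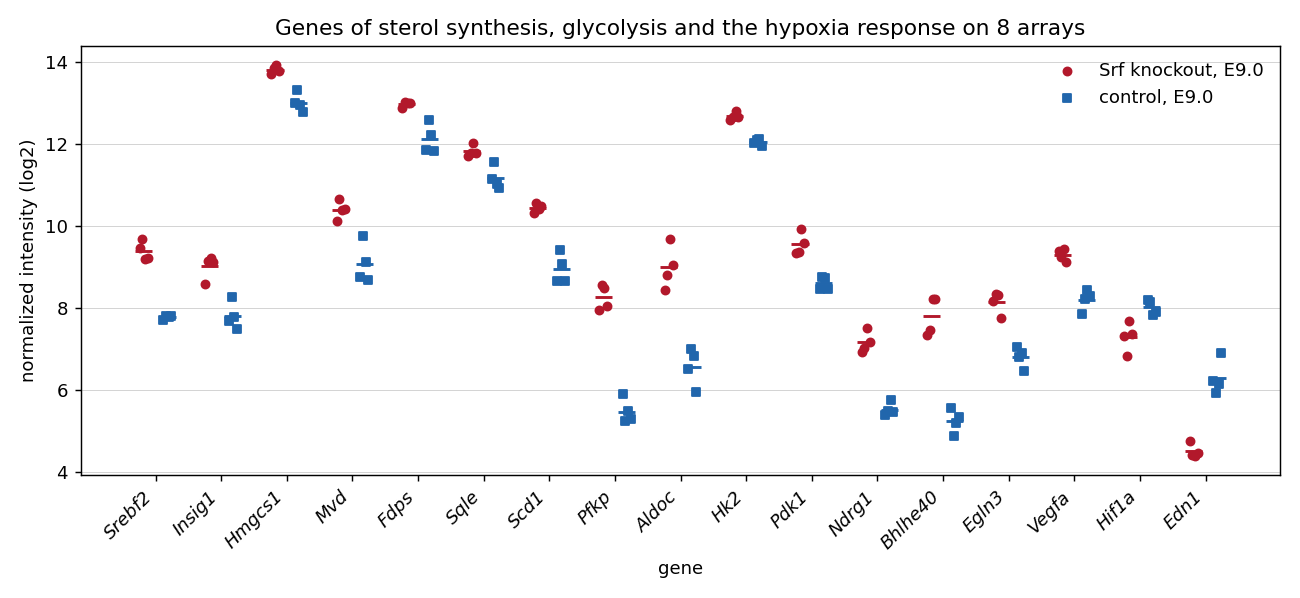
Normalized intensity (log2, vertical axis) of 7 genes of sterol and fatty acid synthesis (left), 4 of glycolysis and 6 of the hypoxia response (right) on the 4 knockout arrays (circles, left of each pair) and the 4 control arrays (squares, right); bars are group means. Knockouts lie above controls for every gene drawn except Hif1a and Edn1, which were lower in knockouts.

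Stress and growth lists were mixed. Of 33 measured genes of the amino acid and unfolded protein responses, 4 rose and 5 fell, with a median of -0.12, which is near the 13.6% and 11.2% called over all features. Chac1, which degrades glutathione and marks the amino acid response, had 6.43, 7.82, 10.05 and 8.44 in knockouts, against 5.36, 5.45, 5.41 and 5.66 in controls. The knockouts varied widely, and Chac1 rose by 2.72 ± 0.57 (SE; adjusted p = 0.00726 by limma). Vldlr, a lipoprotein receptor, rose by 1.43 ± 0.12. The chaperones of the endoplasmic reticulum Calr, Creld2 and Hsp90b1 fell, with -0.71 ± 0.10, -0.55 ± 0.10 and -0.54 ± 0.14. Of 21 p53 and cell death genes 1 rose and 3 fell, with a median of -0.10: the death activator Bbc3 rose by 1.15 ± 0.19, and Aen and the protector Bcl2l1 fell, with -0.61 ± 0.10 and -0.46 ± 0.11. Of 26 genes of DNA replication and mitosis 2 rose and 5 fell, with a median of -0.02. The falls were the G1 cyclins Ccnd2, Ccne1 and Ccne2, with -0.66 ± 0.15, -0.54 ± 0.12 and -0.48 ± 0.11, the helicase subunit Mcm6 with -0.66 ± 0.15 and Rrm1, of nucleotide supply, with -0.59 ± 0.11. Cdt1, which licenses origins, rose by 0.75 ± 0.12 and Cdkn1c, a cell cycle inhibitor, by 0.43 ± 0.10.

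The 10 largest rises with no overlap between groups also held Nrn1 (2.45 ± 0.21) and Chst1 (2.10 ± 0.20), which encode neuritin and a sulfotransferase of keratan chains. The effect of genotype was then set against that at E8.5, on 8 further arrays of the same genotypes. Over all 9848 features 186 had a different effect at E9.0 (1.89%), 129 more positive (1.31%) and 57 more negative (0.579%). That count rests on single arrays: it was 415 without E8.5 control replicate 1 and 70 to 121 without E9.0 knockout replicate 2, 3 or 4, E9.0 control replicate 3 or 4, E8.5 knockout replicate 1 or E8.5 control replicate 2, 3 or 4. At E8.5 the log2 fold change was 0.04 for Pfkp, 0.15 for Aldoc, 0.33 for Bhlhe40, 0.17 for Ddit4, 0.12 for Ppp1r3c, -0.15 for Chac1, -0.09 for Nrn1, 0.06 for Chst1 and -0.02 for Cav1. The difference between stages passed for each of these 9 genes (adjusted p from 6.2e-06 to 0.0337 by limma) and not for Ier3 (0.83 at E8.5, adjusted p = 0.192). These genes, and the largest falls, were ranked by their E9.0 values, which also enter the difference. Features were also filtered on the E9.0 arrays alone, so a larger effect at E9.0 was favoured in advance. Of the 10 largest falls, all of them red cell genes, only Kel differed between stages (-0.51 at E8.5, adjusted p = 0.0388 by limma). For the other 9 genes E8.5 values ran from -0.45 ± 0.53 (Blvrb) to -1.92 ± 1.33 (Hba-x, SE). Their stage differences had adjusted p from 0.097 to 0.723 but reached -3.33 ± 1.07 (Alas2). The absence of a call there does not show a like effect at both stages. Side by side, without a test of the difference, Fhl2, Wdr1, Tpm1, Cnn2 and Vcl had -0.87, -0.56, -0.50, -1.03 and -0.25 at E8.5, and Srebf2, Vegfa and Emcn had 0.21, -0.02 and -0.47. Not every actin gene had the larger fall at E9.0. Srf, Pdlim7 and Acta2 had -1.09, -0.56 and -0.78 at E8.5, against -0.81, -0.48 and -0.45 at E9.0.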

How the data were processed

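Total RNA from the caudal end of mouse embryos was hybridised as biotinylated cRNA to Illumina bead arrays. The table that was used was deposited without normalization: its columns are mean bead intensities on a linear scale, as read from the file headers and the values. It also holds a detection p-value per probe and array, per the file headers. The authors' deposited value table, also intensity on a linear scale, was an alternative only. Per the submitters' processing notes GenomeStudio was used, version and settings unstated.

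Control columns were matched to samples by their names, and no sample column was left unused. All 24 arrays went through neqc of limma 3.58.1 (R 4.3.3): background correction with an offset of 16, quantile normalization, log2. A probe was kept if at least 4 of the 8 E9.0 arrays had a detection p under 0.05, and a symbol was read from its brightest probe over these arrays. Of 25697 probes, 23978 carry 1 symbol and 1719 none; 9067 of 9070 tested symbols were in the reference table (GRCm38.p6). Probes of a gene can disagree: of 644 called genes with another detected probe, 109 had 1 in the opposite direction, and for 5, Actb among them, it was called.

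The 8 arrays were fitted alone with limma's moderated test (prior degrees of freedom 4.84), Benjamini-Hochberg adjusted over 9848 features. A second fit over 16 arrays tested the effect at E9.0 minus that at E8.5. Where a group had no array above background, the change is a bound: that group was given the lowest signal detected per array (log2 4.75 to 4.87), or its own where higher. Gene lists carry no test of their own; members and lists were chosen with earlier results of these data known. Named genes include Srf, the 10 largest rises and falls without overlap, and members of each list, with Hox genes, cofactors and Actb probes. The plan of up to 6 called and 4 further members per list was exceeded for some, the actin and sterol lists among them. All sterol genes named in the text were called higher, so they do not stand for the uncalled members. Simulated data had 9848 genes and 4 arrays per group, with 100 genes changed by each size and noise independent between genes. The fit recovered 44% of changes of 0.5 and 93% of changes of 1 on the log2 scale, and 4.86% of its calls were false. In the data 24.8% of features were called and erythroid genes varied together across arrays, so these rates need not hold there. Replicate numbers did not pair the samples and were not used. Alternatives were the replicate block, the deposited table, other background settings and filters, the mean of probes, a trended robust fit, a fit over all 24 arrays and leaving out each array.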

Additional observations from a re-analysis of the deposited data

Results flagged for a closer look

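In single groups of 4 arrays, 1 array stood apart for some of the 168 named genes, each looked at in both genotypes. Chance flags about 1 in 20 groups, which gives about as many flags of genes as are listed here. Among knockouts, replicate 1 stood apart for Tmod1 (4.79), Kel (5.44), Nfe2 (6.65) and Insig1 (8.58). Replicate 2 did for Acta2 (8.74), Col1a1 (5.08) and Cdkn1c (12.29), replicate 3 for Itgav (5.82), and replicate 4 for Emcn (6.94), P4ha1 (6.42) and Acaca (10.93). Among controls, replicate 1 stood apart for Actb (14.65), replicate 2 for Hey2 (8.35) and Emcn (9.08), and replicate 3 for Lamb2 (6.16) and Dbp (8.15). The mean of the immediate early list was 6.85 on knockout replicate 3, and that of the YAP and TAZ list 7.59 on control replicate 3, each apart from its group.

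The effect of genotype at E9.0 minus that at E8.5, tested as an interaction with limma, was 2.73 for Pfkp, 2.87 for Chac1, 2.23 for Bhlhe40, 2.54 for Nrn1, 2.27 for Aldoc, 2.14 for Ddit4, 2.05 for Chst1, 1.89 for Ppp1r3c, 2.03 for Cav1 and -2.79 for Kel. Cav1 was not above background in E9.0 controls and Kel on 3 of 4 E9.0 knockouts, so these differences are not read as sizes. All the genes listed were ranked by their E9.0 values, so a larger effect at E9.0 was favoured in advance.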

How the results depend on the processing

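Same-numbered knockout and control arrays did not deviate together (correlations of -0.27, 0.01, -0.27 and -0.07), so the replicate numbers share only a number. With the replicate block 1675 features were called, tail bud genes called lower were 0 and features that differed between stages were 83; 7 of 145 named calls were lost. In a fit over all 24 arrays 1525 features were called (851 higher, 674 lower), 1484 of them among the 2445, and tail bud genes called higher were 1. The named genes that then lost their call were Tpm3, Dstn, Pfn1, Myc, Ajuba, Itga3, Col4a1, Lin28a, Hey2, Twist1, Hoxc6, Hoxb4, Hoxa9, Hoxc10, Hba-a1, Hbb-bh1, Hbb-y, Pecam1, Pfkl, Egln1, Hif1a, Cox4i2, Nsdhl, Hsp90b1, Bcl2l1, Ccne2, Cdkn1c, Apoe and Trf. Leaving out 1 array, 1603 to 2433 features were called (900 to 1318 higher, 703 to 1115 lower; fewest without control replicate 4), 0 to 1 tail bud genes fell, 1 to 3 Hox genes of groups 10 to 13 fell, and 70 to 415 features differed between stages. Of the stage counts the ends are without E8.5 control replicates 2 and 1. The actin median was -0.37 without a filter and -0.34 with the mean of probes. The erythroid median was -0.92 in the deposited table, and 13 members fell among those detected on all 8 arrays. The hypoxia median was 0.31 without a filter and 0.60 for genes detected on all 8 arrays. Tail bud genes called higher were 1 with the mean of probes, and called lower 0 without a filter and with the trended robust fit. For Hox groups 10 to 13 and sterol synthesis the alternatives were added after seeing the data: without a filter the Hox median was -0.11 and 1 gene fell, as 1 did with the trended robust fit. Actb with the mean of probes (0.77), Tbx6 with the mean of probes (-0.15) and Fgf8 without knockout replicate 4 (-0.037) changed direction; without 1 array Fgf8 ran from -0.037 to 0.184. Srf kept its call throughout (-0.89 to -0.66, adjusted p from 0.000228 to 0.0189). Of 145 named calls, 132 held without each array in turn and 103 under every alternative. The cause was not tested for any of these changes. Genes near background, such as Noto, Foxa2, Kel and Hoxd12, are measured least well.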

Other observations

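Of 14 measured genes of the circadian clock's output, 6 rose, 1 fell and 7 were not called, against 13.6% called higher and 11.2% lower over all features. The median log2 fold change was 0.27, and 3 differences were negative. Dbp, a clock-controlled factor, had 9.32, 9.63, 9.52 and 9.41 in knockouts, against 7.75, 7.78, 8.15 and 7.75 in controls, and rose by 1.61 ± 0.12 (SE; adjusted p = 5.5e-05 by limma). Its relative Tef rose by 0.69 ± 0.12 and the repressor Ciart by 1.08 ± 0.16. Of 10 measured retinoic acid genes 2 rose and 1 fell: the binding protein Crabp1 rose by 0.65 ± 0.09, the receptor Rxrb by 0.61 ± 0.13, and Stra6, the retinol transporter, fell by 0.77 ± 0.17. Of 14 imprinted growth regulators 1 rose and 3 fell; Peg10 fell by 0.98 ± 0.19. Of 13 measured genes of the visceral yolk sac endoderm, a tissue that can come along in dissection, Apoe rose by 0.82 ± 0.17 and Trf fell by 0.58 ± 0.14, while Apoa1 had 0.39 (adjusted p = 0.123). The median of this list was 0.20, with 10 positive and 3 negative differences. Of 35 genes of the respiratory chain 4 rose and none fell, with a median of 0.00; Cox4i2, a subunit used in low oxygen, rose by 0.85 ± 0.22.

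Chromosome 17, which carries Srf, had 130 of 444 tested genes called (29.3%), and the other chromosomes had 20.9% to 28.2%. Xist was detected on 4 of 4 knockout arrays and 3 of 4 control arrays.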
